A study of Mus musculus with 20 samples.

Results

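Plantaris muscle without satellite cells was compared with muscle that kept them on day 5 of mechanical overload (MOV), in female mice aged 5 months of the genotype Pax7CreER/+; Rosa26DTA/+ (Pax7-DTA). SC- mice had received tamoxifen, which switches on diphtheria toxin A in cells that express Pax7, and SC+ mice of the same genotype had received vehicle. Both groups then went through a washout period and surgical removal of the synergist muscles, which loads the plantaris. Each group was measured on 2 Affymetrix arrays, and each array held RNA pooled from 2 or 3 mice, so the comparison used 4 of the 20 arrays of the series (SC- and SC+, sham and MOV days 1, 3, 5 and 7). All 19572 of 28846 probe sets that carry exactly 1 gene symbol entered, which gave 19505 genes after the brightest probe set was kept for the 55 genes with several. No group received tamoxifen and kept its satellite cells, so loss of the cells and exposure to tamoxifen cannot be told apart.

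Satellite cells are the stem cells of skeletal muscle and are marked by the transcription factor Pax7. After injury or overload they become myoblasts, which express Myf5, Myod1 and then Myog, and fuse with each other or with existing fibres through the membrane proteins myomaker (Mymk) and myomixer (Mymx). Fibres that have just formed or taken in new nuclei carry embryonic and cardiac forms of the contractile proteins, such as embryonic myosin heavy chain (Myh3). Overloaded muscle also takes in macrophages, which clear debris and release signals to muscle and connective tissue. Because whole muscle was measured, fewer cells of a type and less RNA per cell cannot be told apart.

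Values are log2 intensities, and every difference is SC- minus SC+ on that scale. The arrays of MOV day 5 were alike, with medians of 6.516 to 6.542 and a correlation between the 2 arrays of 0.9875 in SC- and 0.9892 in SC+ muscle across genes. Background probe rows ran between 2.68 and 7.2 on these arrays, and 11181 genes had both group means below that upper value, so a level under about 7.2 may be near background. At the other end the scale was filled at about 19.93, where differences are compressed. Of the other arrays, which share the estimate of error, SC+ sham replicate 2 stood apart. It read 13.62 for Myh3 and 12.74 for Mymk, against 7.46 and 6.87 on SC+ sham replicate 1, and 169 genes differed by over 2 log2 units between these arrays. SC- MOV day 1 replicate 2 read 13.83 for Mest, against 7.16 on replicate 1.

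At MOV day 5, 872 genes were higher in SC- muscle (4.47% of the genes tested) and 923 were lower (4.73%) at an unadjusted p under 0.05 in limma, and about 975 genes would pass in both directions together if nothing differed. Below, "higher" and "lower" genes of a list are those that passed this threshold, which is the one the study's methods name for this contrast. After Benjamini-Hochberg adjustment 1 gene passed (0.00513%), or 16 without SC+ sham replicate 2 and 26 when only the 4 arrays of MOV day 5 were fitted. The differences were not symmetrical in size: 12 lower genes differed by over 2 log2 units, against 3 higher genes, while 146 lower and 183 higher genes differed by over 1. The count of higher genes was 498 without SC+ replicate 1, and the count of lower genes was 587 without SC- replicate 2 and 486 without SC+ replicate 1. Of the 157 genes followed by name, 48 lost their call without SC- replicate 1, 58 without SC- replicate 2, 74 without SC+ replicate 1 and 27 without SC+ replicate 2. Some of these 157 genes had not passed with all arrays and so had no call to lose. The plot of the largest differences shows the 4 values of the 12 largest differences in each direction.

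**Figure D1:**
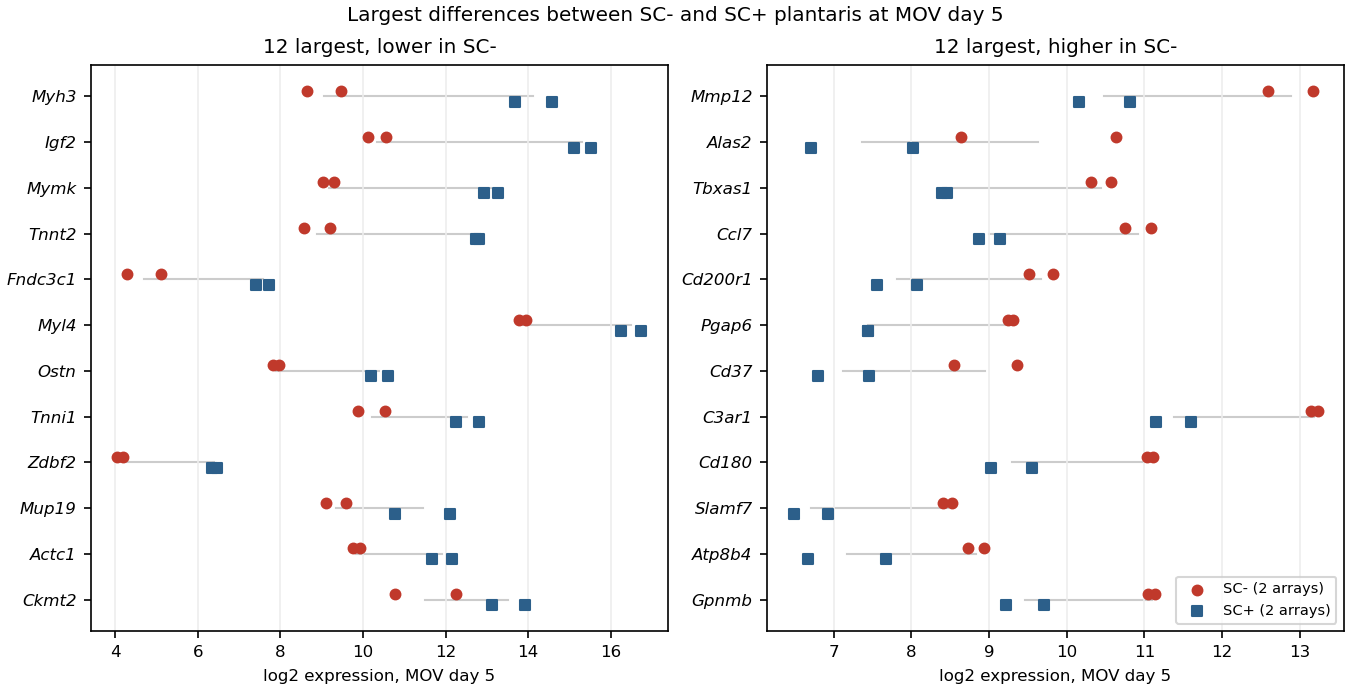
Log2 expression on the 4 arrays of MOV day 5 (x axis) for the 12 largest differences in each direction, with SC- arrays as red circles and SC+ arrays as blue squares, and a grey line between group means. Myh3 lay at 9.46 and 8.63 in SC-, against 13.67 and 14.59 in SC+, while Mmp12 lay at 12.59 and 13.18 in SC-, against 10.81 and 10.16 in SC+.

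Pax7, whose cells the toxin removes, read 4.53 and 4.24 in SC- muscle, against 5.22 and 4.88 in SC+ muscle. The groups did not overlap, and the difference was -0.66 (SE 0.28, unadjusted p = 0.027), but all 4 values lie in the range of the background rows, so the size of the loss cannot be read from this probe set. Without SC- replicate 2 or without SC+ replicate 1 the difference did not pass. Myf5, which marks committed satellite cells and myoblasts, read 3.99 and 3.17 in SC- muscle and 5.41 and 5.13 in SC+ muscle, a difference of -1.69 (SE 0.32) that passed with each array left out. Its values too are within the background range. Megf10, an engulfment receptor of satellite cells, was above that range in SC+ muscle only, with 6.35 and 6.12 in SC- and 7.56 and 8.01 in SC+ (-1.55, SE 0.27). Fgfr4 (-0.97), Met, the receptor for hepatocyte growth factor (-0.84), and Cdh15, or M-cadherin (-0.82), were also lower, although Cdh15 lost its call without SC- replicate 2 or SC+ replicate 1. In all, 6 of 17 satellite cell and myoblast markers (35.3%) were lower and none was higher, with a median of -0.33 against -0.00233 over all genes. The median was -0.22 without SC- replicate 1 and -0.17 without SC+ replicate 2. Chemokine receptor Cxcr4 had the highest value of the list, at 0.64, and did not pass. Both group means were under 6 for 6 of the 17 markers.

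Among the myogenic regulators the largest difference was in Myog, the factor of the step from myoblast to myocyte. It read 8.17 and 7.87 in SC- muscle and 10.002 and 9.32 in SC+ muscle, so that both SC- arrays were below both SC+ arrays (-1.64, SE 0.42, unadjusted p = 0.00108). Myod1 read 5.38 and 5.34 in SC-, against 5.72 and 5.47 in SC+, and did not pass (-0.24, SE 0.28). Myf6, which mature fibres express, overlapped between the groups, with 14.17 and 13.54 in SC- and 14.21 and 13.73 in SC+. Mef2a (-0.70) and Eya1 (-0.62) were lower and Id2, an inhibitor of basic helix-loop-helix factors, was higher (0.76), so that 3 of 14 regulators were lower and 1 was higher. Both Eya1 and Id2 lost their call when SC- replicate 1, SC- replicate 2 or SC+ replicate 1 was left out.

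Among the fusion genes the lower ones were those specific to muscle. Mymk read 9.29 and 9.04 in SC- muscle, against 12.93 and 13.28 in SC+ muscle, a difference of -3.94 (SE 1.11, unadjusted p = 0.00227, adjusted p = 0.286), or a 15.4-fold lower mean in SC-. Mymx read 5.68 and 6.44 in SC- and 7.43 and 6.70 in SC+ (-1.01), partly within the background range, and lost its call without SC- replicate 1 or SC+ replicate 1. Of the adhesion and signalling genes in the list, which many cell types express, only Elmo1 passed, and it was higher (0.90), a call lost without SC- replicate 1 or SC+ replicate 2. Itgb1 (0.10), Cd9 (0.22) and Cd81 (0.00) did not pass. Thus 2 of 17 fusion genes were lower and 1 was higher, and the median of the list was 0.10.

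The largest difference of the whole comparison was in Myh3. Embryonic myosin read 9.46 and 8.63 in SC- muscle and 13.67 and 14.59 in SC+ muscle (-5.08, SE 1.20, 95% interval -7.59 to -2.57), a 33.9-fold lower mean in SC-. Cardiac troponin T (Tnnt2) read 9.20 and 8.56 in SC-, against 12.75 and 12.80 in SC+ (-3.89, SE 0.83). Embryonic and atrial myosin light chain (Myl4) read 13.96 and 13.78 in SC- and 16.75 and 16.25 in SC+ (-2.63, SE 0.50). Cardiac alpha-actin (Actc1), the actin of developing muscle, read 9.75 and 9.93 in SC- and 11.67 and 12.16 in SC+ (-2.07, SE 0.40). For all of them the gap between the groups was wider than the gap between the arrays of a group, and each passed with any of the 4 arrays left out, with adjusted p-values of 0.129 to 0.203 in limma. Mybph, a myosin-binding protein, was lower too (-1.37), although its values of 13.68 and 14.60 in SC- came close to the lower SC+ value (16.04 and 14.98), and it lost its call without SC- replicate 1 or SC+ replicate 1. The remaining members, Myl6b (-0.44) and Myh8 (-0.02), did not pass, and Myh8 was at the top of the scale on all 4 arrays (19.91 to 19.93), where nothing can be measured. The list had 5 of 7 members lower, a median of -2.07, and a mean of 12.05 and 11.95 on the SC- arrays against 14.20 and 14.23 on the SC+ arrays.

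Stretches of the proximal promoters of lower muscle genes (Chrng and Tnni1 are described further on) are shown to place the letters that myogenic factors of the Myod1 and Myog family are known to bind, the E-box CAGCTG (the same on both strands). They are from RefSeq, build GRCm38.p6, plus strand, with CAGCTG in capitals and other forms of the E-box not marked. The stretches are Chrng at chr1:87205636-87205755, Tnnt2 at chr1:135836091-135836210, Mybph at chr1:134193349-134193468 and Tnni1 at chr1:135799333-135799452.
Chrng: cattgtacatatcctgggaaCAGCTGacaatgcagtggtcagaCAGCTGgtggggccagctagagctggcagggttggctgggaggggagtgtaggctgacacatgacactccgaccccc
Tnnt2: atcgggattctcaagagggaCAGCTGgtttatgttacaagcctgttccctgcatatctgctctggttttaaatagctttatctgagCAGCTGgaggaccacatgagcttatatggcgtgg
Mybph: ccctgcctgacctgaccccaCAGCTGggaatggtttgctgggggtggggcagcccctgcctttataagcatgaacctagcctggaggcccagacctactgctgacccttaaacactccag
Tnni1: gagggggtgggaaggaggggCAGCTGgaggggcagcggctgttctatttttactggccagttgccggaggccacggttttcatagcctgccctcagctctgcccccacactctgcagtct
In Chrng the marked letters begin 155 and 132 bases before the start site, in Tnnt2 223 and 157, in Mybph 79 and in Tnni1 158. These windows of 250 bases before to 50 after a start were in the table for 15 of the 20 lower members of the satellite cell, regulator, fusion, embryonic and acetylcholine receptor lists, and 3 of those genes held the letters (Chrng, Mybph and Tnnt2). That is 20%, near the 23.5% of the other members (8 of 34) and the 18% of all genes tested that have a window, so the letters are a description and do not set the lower genes apart.

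The growth factor Igf2 had the next largest difference. It is expressed from the paternal allele and acts in myoblast differentiation. It read 10.12 and 10.56 in SC- muscle and 15.11 and 15.53 in SC+ muscle (-4.97, SE 0.84, unadjusted p = 1.23e-05, adjusted p = 0.106), a 31.4-fold lower mean in SC-. Peg3, a paternally expressed zinc finger protein, read 7.73 and 7.61 in SC- and 8.70 and 9.30 in SC+ (-1.33). Cdkn1c, the maternally expressed cell cycle inhibitor p57, read 5.52 and 5.64 in SC- and 6.55 and 6.32 in SC+ (-0.86), within the background range. Of 8 measured imprinted growth genes these 3 were lower and none was higher. Mest, which did not pass, read 17.15 and 18.09 in SC- and 16.82 and 17.76 in SC+ (0.34), so that the groups overlapped.

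Another row of the same region of mouse chromosome 7, annotated to Mir675, which lies within the H19 transcript, is named here after its values were seen. It read 16.97 and 16.81 in SC- muscle and 18.57 and 18.98 in SC+ muscle (-1.89, SE 0.47), and passed with each array left out. The array reads RNA of the locus and does not separate the mature arms. These are shown from RefSeq with the seed, bases 2 to 8, in capitals, at chr7:142577112-142577133 and chr7:142577078-142577099 on the minus strand.
mmu-miR-675-5p: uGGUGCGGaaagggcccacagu
mmu-miR-675-3p: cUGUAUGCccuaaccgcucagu

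The gene that passed the adjusted threshold was Fndc3c1, a fibronectin domain protein, with 5.11 and 4.28 in SC- muscle and 7.41 and 7.73 in SC+ muscle (-2.88, SE 0.40, adjusted p = 0.0187). Its SC- values are within the background range and its SC+ values just above it, and the adjusted p lost the threshold without SC- replicate 2, SC+ replicate 1 or SC+ replicate 2. Zdbf2, another imprinted gene, read 4.05 and 4.18 in SC- and 6.34 and 6.46 in SC+ (-2.28), all within the background range. Ostn, the secreted peptide osteocrin (musclin), read 7.97 and 7.82 in SC- and 10.59 and 10.19 in SC+ (-2.49, SE 0.49). Ckmt2, the mitochondrial creatine kinase of striated muscle, read 12.25 and 10.77 in SC- and 13.92 and 13.14 in SC+ (-2.01), with SC- replicate 2 the lowest. Mup19, a major urinary protein, read 9.10 and 9.59 in SC- and 10.78 and 12.12 in SC+ (-2.10). It belongs to a family of near-identical genes that probes can share, and it lost its call without SC- replicate 1 or SC+ replicate 2. The family was looked at after the values of Mup19 were seen. All 9 measured members had negative differences and 5 passed (55.6%, against 4.73% of all genes), and they are not 9 independent readings.

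Genes of the neuromuscular junction that fibres also express during development and after loss of nerve contact were lower where they changed. Chrng, the fetal gamma subunit of the acetylcholine receptor, read 5.34 and 4.62 in SC- muscle and 5.96 and 6.68 in SC+ muscle (-1.34, SE 0.50), within the background range, and lost its call without SC- replicate 2 or SC+ replicate 2. Chrnb1, the beta subunit, read 11.39 and 11.03 in SC- and 12.10 and 11.96 in SC+ (-0.82). Acetylcholinesterase (Ache, -0.84) and the receptor-clustering protein Rapsn (-0.74) were lower as well. Ache rested on its brightest probe set: with the mean of its probe sets it was at -0.41 and lost its call. It also lost the call without SC- replicate 1, SC- replicate 2 or SC+ replicate 2. Rapsn lost its call without SC- replicate 1 or SC+ replicate 2, and Chrnb1 without SC- replicate 2 or SC+ replicate 1. The subunits Chrna1 (-1.15), Chrnd (-0.49) and Chrne (-0.20) and the adhesion molecule Ncam1 (-1.34) did not pass, so 4 of 15 members were lower and none was higher. The count was 1 without SC- replicate 2 and 2 without SC+ replicate 2.

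**Figure D2:**
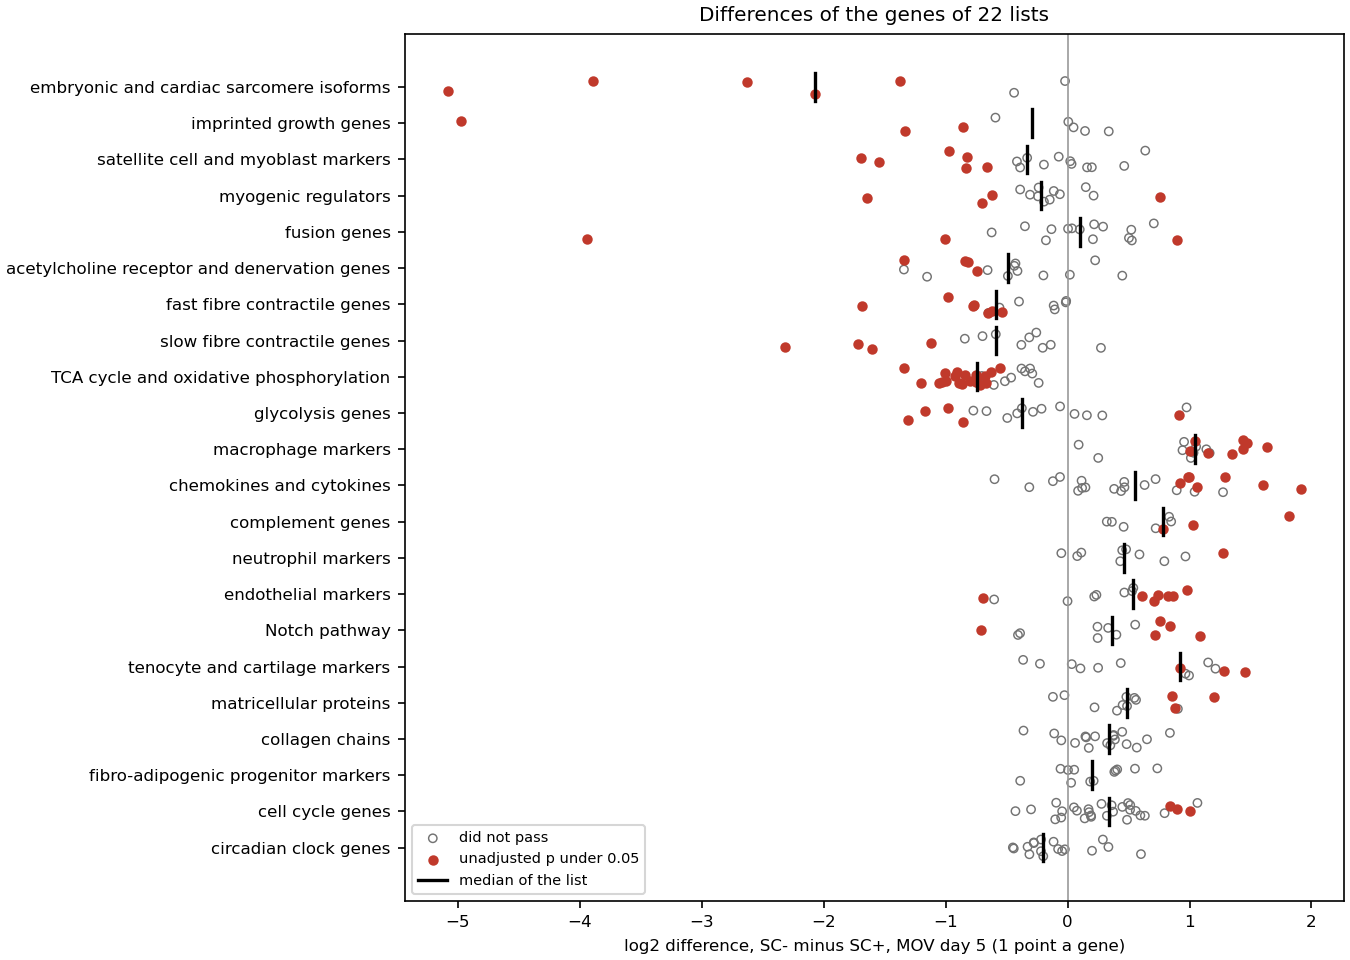
Log2 difference, SC- minus SC+, at MOV day 5 (x axis) for each measured gene of 22 lists, 1 point a gene, filled where the unadjusted p was under 0.05, with a black bar at the median of each list. The lowest median, -2.07, is that of the embryonic and cardiac isoforms, and the highest, 1.05, is that of the macrophage markers.

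Of 14 fast fibre genes 7 were lower (50%), none was higher, and all 14 differences were negative, with a median of -0.59. Parvalbumin (Pvalb), the calcium buffer of fast fibres, read 15.02 and 14.28 in SC- muscle and 16.89 and 15.76 in SC+ muscle (-1.68, SE 0.38). Myh4, the fast IIb myosin, read 19.37 and 19.15 in SC- and 19.92 and 19.90 in SC+ (-0.65), with the SC+ values at the top of the scale. Of 13 slow fibre genes 4 were lower (30.8%), again with a median of -0.59. These were the thin-filament genes Tnni1 (-2.32), Tnnt1 (-1.60) and Tnnc1 (-1.12), which encode the slow troponins and are also used by developing muscle, and Casq2, the slow and cardiac calsequestrin (-1.72). The slow myosin Myh7 read 10.44 and 10.49 in SC- and 11.16 and 10.39 in SC+, and did not pass (-0.31). Thus the slow troponins differed without a difference past the threshold in slow myosin, and a test of one against the other was not made. The fast count was 3 without SC+ replicate 1 or SC- replicate 2, and the slow count was 1 without SC- replicate 2 or SC+ replicate 2. The fast median was -0.27 without SC+ replicate 1, and the slow median was -0.33 without SC- replicate 2, -0.38 without SC+ replicate 1 and -0.89 without SC- replicate 1.

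Mitochondrial energy genes were lower together. Of 29 genes of the tricarboxylic acid (TCA) cycle and oxidative phosphorylation 20 were lower (69%), none was higher, all 29 differences were negative, and in 28 both SC- arrays were below both SC+ arrays, a pattern that 19.4% of all genes showed. The median was -0.74 and the differences ran between -1.34 (Cox7a1) and -0.24 (Sucla2). Cox7a1, the muscle form of a cytochrome c oxidase subunit, read 10.42 and 10.01 in SC- muscle and 12.13 and 10.98 in SC+ muscle. Ndufs1, the largest subunit of complex I, read 12.15 and 11.24 in SC- and 13.17 and 12.63 in SC+ (-1.20, SE 0.36). Uqcrc1 of complex III read 11.36 and 11.14 in SC- and 12.64 and 11.97 in SC+ (-1.06). Ndufa9, another complex I subunit, read 11.63 and 11.43 in SC- and 12.52 and 12.53 in SC+ (-0.997). The list mean was 12.44 and 12.19 on the SC- arrays and 13.25 and 12.84 on the SC+ arrays, and the count was 4 without SC+ replicate 1 and 7 without SC- replicate 2, with the list median still at or below -0.53 with any of the 4 arrays left out. Macrophage and endothelial markers were higher on the same SC- arrays, as described below, and their part in the lower values of muscle fibre genes was not tested.

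The respiratory chain was looked at by complex after these values were seen. Nuclear-encoded subunits were lower in 22 of 36 of complex I (61.1%, median -0.70), 6 of 9 of complex III (66.7%, median -0.70), 8 of 18 of complex IV (44.4%, median -0.42) and 12 of 17 of ATP synthase (70.6%, median -0.81). Complex IV had 1 higher member, and the other complexes had none. These counts too rested on SC+ replicate 1 and SC- replicate 2: complex I had 7 lower members without either, complex III had 2 without SC+ replicate 1, complex IV had 2 and 3, and ATP synthase had 5 and 4. Mitochondrial ribosomal proteins were lower in 11 of 76 (14.5%, median -0.26) and cytosolic ribosomal proteins in 2 of 61 (3.28%, median -0.09), against 4.73% of all genes. These were Rpl36a (-0.63) and Rpl3l, the ribosomal protein 3 of striated muscle, with 9.42 and 8.72 in SC- muscle and 10.97 and 9.87 in SC+ muscle (-1.35).

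Glycolysis was mixed. Triosephosphate isomerase (Tpi1, -1.31), muscle enolase (Eno3, -1.17), muscle phosphoglycerate mutase (Pgam2, -0.98) and muscle phosphofructokinase (Pfkm, -0.86) were lower. The more widely expressed mutase Pgam1 was higher, at 8.997 and 9.04 in SC- and 7.85 and 8.36 in SC+ (0.92), so 4 of 17 members were lower (2 without SC+ replicate 1) and 1 was higher. Among redox genes 3 of 24 glutathione and thioredoxin genes were higher: Hmox1, heme oxygenase (1.38), Gpx1 (0.81) and Gclm (0.78), of which Hmox1 is also a gene of macrophages. Hmox1, Gpx1 and Gclm each lost their call without SC- replicate 1, SC- replicate 2 or SC+ replicate 1. Of 13 pentose phosphate and NADPH genes 1 was lower, the mitochondrial enzyme Idh2 (-0.87, lost without SC- replicate 2 or SC+ replicate 2), and none was higher. This list does not hold the pentose phosphate genes G6pdx and Tkt, which are not reported here.

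Of 18 macrophage markers 8 were higher (44.4%), none was lower, all 18 differences were positive, and in 16 both SC- arrays were above both SC+ arrays, which 19.6% of all genes showed. The median was 1.05, and differences ran between 0.09 (Cd163) and 1.64 (Gpnmb). The glycoprotein Gpnmb read 11.14 and 11.05 in SC- muscle and 9.22 and 9.70 in SC+ muscle (1.64, SE 0.48). Trem2, a lipid receptor, read 10.45 and 9.63 in SC- and 8.20 and 8.94 in SC+ (1.47, SE 0.34). The integrin Itgam (CD11b) read 13.07 and 12.52 in SC- and 11.35 and 11.38 in SC+ (1.43). Lgals3, galectin 3, read 11.12 and 10.79 in SC- and 9.26 and 9.78 in SC+ (1.44). The Fc receptor Fcgr1 (1.35), Cd14 (1.15), C1qc (1.04) and Adgre1, or F4/80 (1.00), were the other higher markers. The list mean was 11.99 and 11.39 in SC- and 10.46 and 10.80 in SC+. SC- replicate 1 was the highest array, and without it 4 of 18 were higher, although the list median was still 0.82. With the error taken without SC+ sham replicate 2, 14 of 18 were higher, and with only the 4 arrays of day 5 it was 16.

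Of the 12 genes with the largest increases, Gpnmb is in the macrophage list. Mmp12, macrophage elastase, read 12.59 and 13.18 in SC- muscle and 10.81 and 10.16 in SC+ muscle (2.40, SE 0.76, adjusted p = 0.322), a 5.28-fold higher mean. Tbxas1, thromboxane synthase, read 10.32 and 10.57 in SC- and 8.46 and 8.39 in SC+ (2.01, SE 0.43). Ccl7, a monocyte chemokine, read 11.09 and 10.75 in SC- and 8.87 and 9.13 in SC+ (1.92, SE 0.42). Cd200r1, an inhibitory receptor of myeloid cells (1.85), the tetraspanin Cd37 (1.83), the complement receptor C3ar1 (1.81), the Toll-like receptor relative Cd180 (1.79) and Slamf7 (1.76) are all known from leukocytes. Pgap6 (1.83) and Atp8b4 (1.66) complete the group together with Gpnmb. Alas2, the heme synthesis enzyme of red cell precursors, differed by 2.27, with 8.63 and 10.63 in SC- and 8.03 and 6.71 in SC+, the widest spread within groups of the 12. Each of these 12 genes passed with any of the 4 arrays left out, at adjusted p-values of 0.129 to 0.375.

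Of all 36 measured C-C and C-X-C chemokines 7 were higher (19.4%, against 4.47% of all genes). Of their differences 13 were negative, and the median was 0.15. In the chosen list of chemokine and cytokine genes 7 of 24 were higher (29.2%, median 0.55) and none was lower. Besides Ccl7 these were the monocyte chemokine Ccl2, at 12.56 and 11.73 in SC- muscle and 10.74 and 10.34 in SC+ muscle (1.61, SE 0.41), the interleukin 1 receptor antagonist Il1rn (1.29), the neutrophil chemokine Cxcl2 (1.06), Cxcl12 (1.00), the macrophage growth factor Csf1 (0.99) and Cxcl16 (0.92). The count was 4 without SC- replicate 2 or SC+ replicate 1. Complement genes were higher in 3 of 9 (1 without SC- replicate 1): C3ar1, C5ar1 (1.03) and C4b (0.78). Markers of other leukocytes were often near background. Csf3r, the receptor for granulocyte colony-stimulating factor, was the only higher one of 10 neutrophil markers (1.28), although 9 of the 10 differences were positive and 4 of the 10 had both means under 6, and Cd4 (0.63) was the only higher one of 11 lymphocyte and natural killer markers, 9 of these 11 having both means under 6, and it lost its call without SC- replicate 1 or SC+ replicate 1. None of 11 dendritic cell and MHC class II genes passed. Interferon-stimulated genes were higher in 3 of 18, Mx1 (0.97), Ddx58 (0.84) and Ifih1 (0.74). None of these calls remained without SC+ replicate 1, and the list median was 0.56 with all arrays and 0.20 without SC+ replicate 1 or SC- replicate 1.

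**Figure D3:**
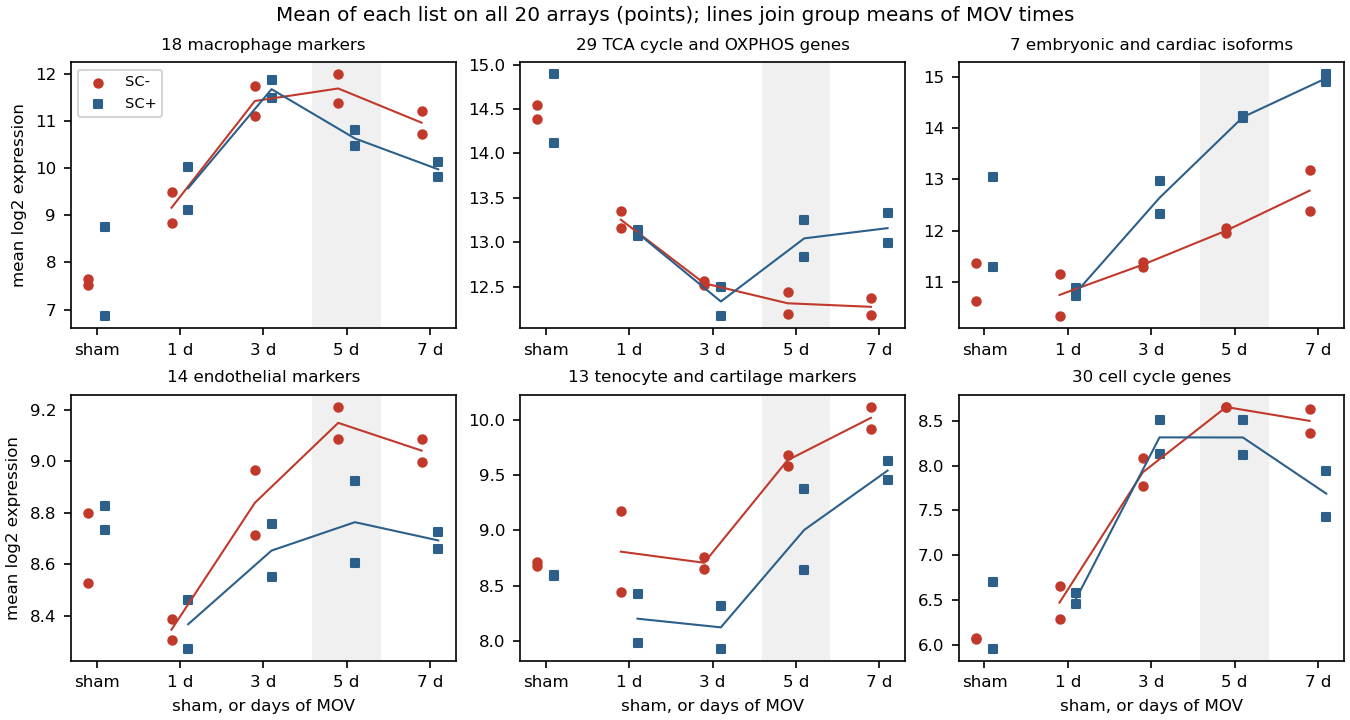
Mean log2 expression of the measured genes of 6 lists (y axis) on each of the 20 arrays, for sham and days 1 to 7 of MOV (x axis), with SC- arrays as red circles, SC+ arrays as blue squares, lines through group means of the MOV times and MOV day 5 shaded. At day 5 the macrophage list stood at 11.99 and 11.39 in SC-, against 10.46 and 10.80 in SC+, and the TCA and OXPHOS list at 12.44 and 12.19 in SC-, against 13.25 and 12.84 in SC+.

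Endothelial markers were higher in 6 of 14 (42.9%, median 0.53). The tight junction gene Cldn5 read 7.23 and 7.28 in SC- muscle and 5.92 and 6.63 in SC+ muscle (0.98, SE 0.29). Plvap (0.86), Cdh5, the vascular cadherin (0.82), Eng (0.74), Pecam1 (0.71) and Kdr, a receptor for vascular endothelial growth factor (0.61), were the others. Prox1, the factor of lymphatic endothelium, which muscle cells can also express, was lower (-0.70), a call that was lost with any of the 4 arrays left out. SC+ replicate 1 was the lowest array of this list, at 8.61 against 9.21, 9.09 and 8.92 on the SC- arrays and SC+ replicate 2, and without it 1 marker was higher. Notch pathway genes split by ligand: Dll4, the ligand of endothelial tips, was higher, at 8.16 and 7.83 in SC- and 6.78 and 7.04 in SC+ (1.08), as were Lfng (0.84), Jag1 (0.76) and Rbpj (0.72), a count of 4 that was 2 without SC- replicate 1 or SC+ replicate 1. Dll1, a ligand of myogenic cells, was lower, at 5.67 and 5.66 in SC- and 6.39 and 6.37 in SC+ (-0.71), within the background range.

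Among connective tissue genes, 3 of 13 tenocyte and cartilage markers were higher: Tnmd, tenomodulin (1.46), Comp (1.28) and Thbs4 (0.92). Tnmd read 12.44 and 12.49 in SC- muscle and 10.16 and 11.87 in SC+ muscle, with SC+ replicate 1 well below the other 3 arrays, and it lost its call without that array, SC- replicate 1 or SC- replicate 2. With any 1 of these 3 arrays left out the count for the list was 1. Matricellular genes were higher in 3 of 13, namely Ccn2, or CTGF, at 10.67 and 10.17 in SC- and 9.48 and 8.96 in SC+ (1.20), Ccn1 (0.88) and Thbs1 (0.86). All of these calls were lost without SC+ replicate 2, and 1 of the 3 remained without SC- replicate 1 or SC- replicate 2. None of 18 collagen chains passed (median 0.34, lowest p in limma = 0.111), nor did any of 12 collagen processing enzymes (median 0.50) or 12 markers of fibro-adipogenic progenitors (median 0.20). With 2 arrays a group these medians do not show that the genes are alike in both muscles.

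Of 30 cell cycle genes 3 were higher (10%, against 4.47% of all genes): E2f1 (1.00), Mcm3 (0.90) and Tpx2 (0.84). E2f1 read 6.04 and 5.45 in SC- muscle and 4.71 and 4.78 in SC+ muscle, within the background range. Tpx2 lost its call without SC- replicate 1, SC- replicate 2 or SC+ replicate 1. The median of the list was 0.34, or 0.12 without SC+ replicate 1, and at day 7 it was 0.77. At day 7, 16 of the 30 genes were higher, when 6.2% of all genes were. Egr2, an immediate early gene also used by Schwann cells, read 9.51 and 9.02 in SC- and 8.19 and 7.55 in SC+ (1.40, SE 0.30), and Pmp22 was higher too (1.22). Thus 2 of 9 Schwann cell markers were higher, but 5 differences were positive and 4 negative, and the median was 0.0036. The lowest was Mbp (-0.46), and Sox10 and S100b lay within the background range on all 4 arrays. Myostatin (Mstn), the inhibitor of muscle growth, was lower, at 9.16 and 8.93 in SC- and 10.62 and 9.78 in SC+ (-1.16). The ubiquitin ligase Trim63 (MuRF1), a gene of muscle atrophy, was lower too (-1.37), as was Fbxo30 (-0.54), so 2 of 15 genes of atrophy and autophagy were lower (13.3%). Both lost their call without SC- replicate 2 or SC+ replicate 1. Small numbers passed in the other lists, where 4.47% of all genes were higher and 4.73% lower, so these counts say little about the lists. Igfbp3, which binds insulin-like growth factors, was higher (0.99) and Igfbp2 lower (-0.71) among 13 genes of that axis. Inhbb was higher (0.66), and myostatin the only lower one, among 21 genes of the TGF-beta family, which is 4.76% each way and near the shares of all genes. The secreted Wnt modulators Sfrp2 (1.30) and Rspo2 (0.78) were higher, and the Wnt targets Axin2 (-0.67) and Lef1 (-0.49) lower, of 17 Wnt genes. Pdgfrb, a receptor of pericytes and fibroblasts, was higher (0.96), and Abcc9 (-0.68) and Cnn1 (-0.72) were lower, of 11 pericyte and smooth muscle markers. Nrap (-0.82) and Hspb1 (-0.78) were lower of 13 stretch-responsive and Z-disc genes, and Ccng1 (-0.78) of 12 p53 targets. The amino acid transporter Slc1a5 was the higher one (0.93) of 16 serine and folate genes, Dhcr7 (0.61) of 11 cholesterol genes and Mmp12 of 17 matrix proteases and inhibitors. Of the genes of these other lists, Igfbp2 and Mmp12 kept their call with any of the 4 arrays left out, and all others, myostatin included, lost it without SC+ replicate 1. Inhbb ran between 0.023 and 1.29 with 1 array left out. None of 9 adipocyte markers, 17 circadian clock genes, 16 ribosome biogenesis genes or 19 genes of protein folding and the unfolded protein response passed.

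The differences at day 5 were set against those at day 7, which share no array with them but use the same estimate of error for each gene. A gene with a small error passes more easily at both days, so the calls are not independent. Across genes, which are not independent replicates, the correlation of the differences was 0.51. Of the 872 higher genes 276 (31.7%) were also higher at day 7, when 6.2% of all genes were, and of the 923 lower genes 358 (38.8%) were also lower at day 7, when 5.91% of all genes were. In the tested difference between the days, 669 genes passed (3.43%), while about 975 would pass if nothing differed, and none passed after adjustment (smallest adjusted p = 0.715). The count was 1146 without SC- MOV day 5 replicate 1. Myh3 (-4.58 at day 7), Igf2 (-4.88), Mymk (-3.34) and Tnnt2 (-3.44) were about as much lower at day 7, and 27 of the 29 TCA and oxidative phosphorylation genes were lower then.

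**Figure D4:**
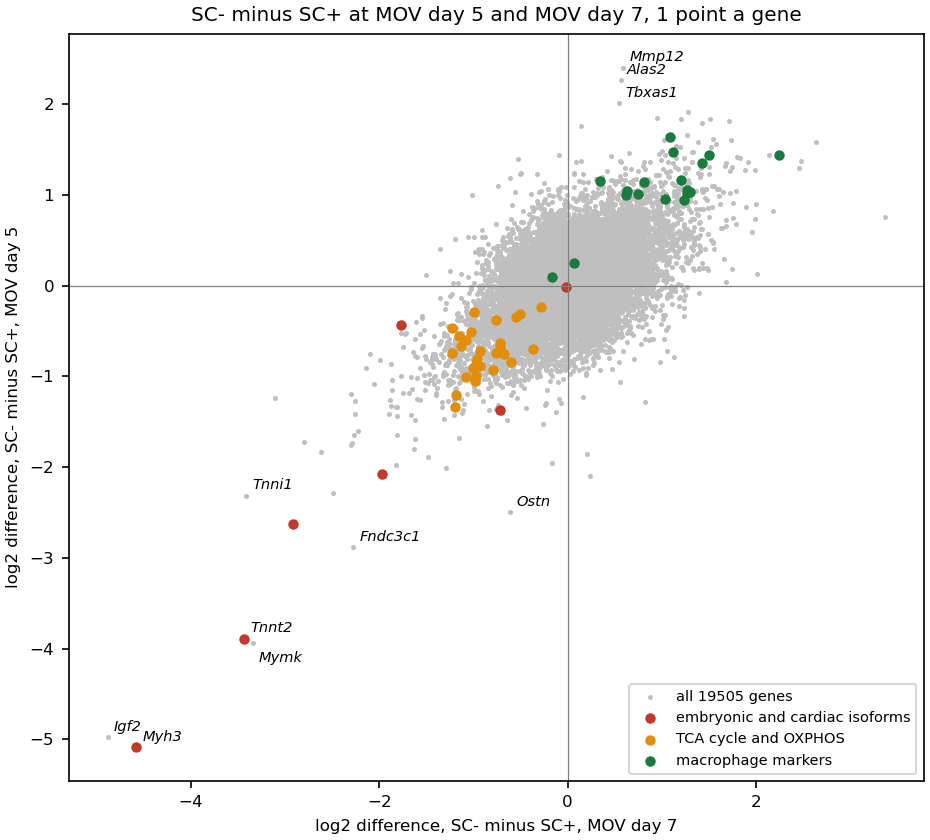
Log2 difference, SC- minus SC+, at MOV day 5 (y axis) against MOV day 7 (x axis) for all 19505 genes (grey), with the embryonic and cardiac isoforms, the TCA and OXPHOS genes and the macrophage markers in colour. Myh3 lay at -5.08 on day 5 and -4.58 on day 7, while Ostn lay at -2.49 on day 5 and -0.61 on day 7.

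Against the mean difference at MOV days 1 and 3, the day 5 difference changed for 2033 genes (10.4%), and none passed after adjustment (smallest adjusted p = 0.159). Without SC- MOV day 1 replicate 2 the count was 1979, and without SC+ MOV day 5 replicate 1 it was 1205. Lists were chosen with earlier results of these data known, and the day 5 difference is a term of this contrast. The shares of list members given here are therefore no result. Of the 29 TCA and oxidative phosphorylation genes 22 were among the 2033 genes. On day 3 their list mean was 12.52 and 12.56 in SC- muscle and 12.50 and 12.17 in SC+ muscle, so both SC- arrays were above both SC+ arrays, the reverse of day 5. At day 5 the SC+ arrays were higher than on day 3 and the SC- arrays were not, a difference between days that was not tested for the list. Of the 18 macrophage markers 9 were among the 2033 genes. Their list mean on day 3 was 11.75 and 11.10 in SC- and 11.49 and 11.86 in SC+, and at day 5 both SC+ arrays (10.46 and 10.80) were below both day 3 SC+ arrays, while the SC- arrays (11.99 and 11.39) overlapped theirs. All 12 genes with the largest increases had a difference below 0 at day 1. Mymk differed already at day 3 (-4.79). Its day 5 difference minus the mean difference of days 1 and 3 did not pass in limma (unadjusted p = 0.218), and day 5 was not tested against day 3 alone.

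**Figure D5:**
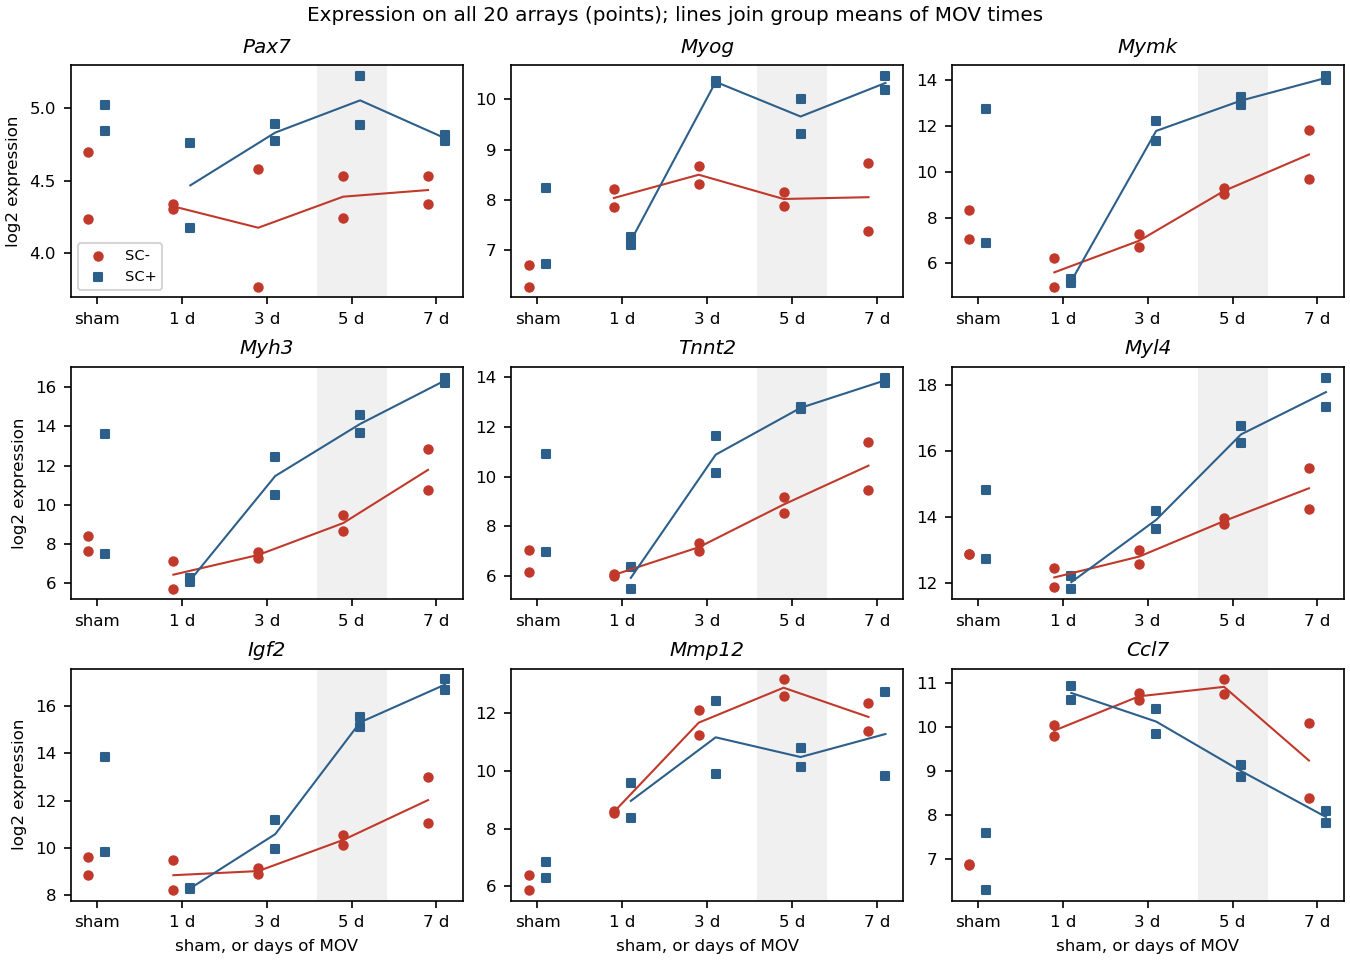
Log2 expression (y axis) of 9 genes on each of the 20 arrays for sham and days 1 to 7 of MOV (x axis), with SC- arrays as red circles, SC+ arrays as blue squares, lines through group means of the MOV times and MOV day 5 shaded. The upper sham SC+ point of Mymk (12.74) and of Myh3 (13.62) is replicate 2, and at day 5 Ccl7 stood at 11.09 and 10.75 in SC-, against 8.87 and 9.13 in SC+.

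Against the difference in sham muscle, 1522 genes changed (7.8%), or 1167 without SC+ sham replicate 2 and 977 without SC+ MOV day 5 replicate 1, and none passed after adjustment (smallest adjusted p = 0.44). Of the 24 genes with the largest differences, which were chosen by the day 5 term of this contrast so that their share is no result, 14 passed, among them C3ar1 (2.92), Cd37 (2.64), Tnni1 (-2.71) and Fndc3c1 (-1.78). For C3ar1, Cd37 and Tnni1 the day 5 difference was smaller in size (1.81, 1.83 and -2.32), so part of the value comes from sham muscle. The macrophage list mean was 6.86 and 8.75 in SC+ sham, with replicate 2 the higher, and 7.51 and 7.64 in SC- sham. The weight of SC+ sham replicate 2 in the values of leukocyte genes was not tested. Myh3 (-2.56), Mymk (-1.85) and Igf2 (-2.39) did not pass in limma, with unadjusted p-values of 0.147, 0.255 and 0.0582, and for these the sham comparison rests on SC+ sham replicate 2. In SC- muscle Myh3 read 9.46 and 8.63 at day 5, against 8.403 and 7.63 in sham.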

How the data were processed

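The authors deposited log2 values of 28846 probe sets on 20 Affymetrix arrays, made by robust multi-array average (RMA), which corrects background, quantile-normalises and takes log2; its version is not given in the sources used here. The paper names the Mouse Gene 1.0 ST array, while the probe set names are those of another type, and this was not settled. Each array carried equal amounts of RNA from 2 or 3 mice, so p-values measure the spread between 2 pools a group. The 9274 rows without exactly 1 symbol were not used, except in an alternative.

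Group means were fitted to all 20 arrays with limma 3.58.1 and eBayes in R 4.3.3 (10 residual and 8.16 prior degrees of freedom), and differences between times were contrasts of the same fit. The fit was tested on simulated data. The number of arrays limits the precision.

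The genes named are Pax7, the 12 largest differences in each direction among genes past an unadjusted p of 0.05 whose arrays did not overlap and whose higher mean was at least 6, genes past the adjusted threshold, and members of lists. Members and lists were chosen with earlier results of these data known. The gene families by complex, the families of major urinary proteins and of chemokines, Mir675, Myh7, Sox10, S100b, Sucla2 and Cd163 were named after their values were seen. Promoters and miRNAs are from RefSeq, GRCm38.p6.

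The alternatives were fits of fewer arrays, an intensity trend, robust eBayes, array weights (statmod 1.5.0), another quantile normalisation, median centring, a minimum mean of 6, every row, the mean of probe sets, a difference over 1, a replicate block and each day 5 array left out. Leaving out SC+ sham replicate 2 and SC- MOV day 1 replicate 2 was added after seeing the data.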

Additional observations from a re-analysis of the deposited data

Results flagged for a closer look

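Among the 24 genes with the largest differences, 4 had a day 5 difference that departed from the day 7 difference at an unadjusted p under 0.05 in limma, where 3.43% of all genes did, and 23 kept their sign. The 24 genes were chosen by their day 5 difference, which is a term of this contrast, so larger values at day 5 are favoured by the choice and the share is no result. The difference was 1.70 log2 units larger at day 5 than at day 7 for Alas2 (unadjusted p = 0.0427), with 2.27 at day 5 and 0.56 at day 7. It was 1.47 larger for Tbxas1 (unadjusted p in limma = 0.0267), with 2.01 at day 5 and 0.55 at day 7. For Ostn the day 5 difference minus the day 7 difference was -1.89 (unadjusted p in limma = 0.0141), with -2.49 at day 5 and -0.61 at day 7. For Mup19 it was -2.34 (unadjusted p in limma = 0.0288), with -2.10 at day 5 and 0.23 at day 7. None of the 4 passed after adjustment over all genes (smallest adjusted p = 0.715).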

How the results depend on the processing

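With 1 array left out at a time, 498 to 1003 genes were higher and 486 to 1077 lower at MOV day 5, 0 to 16 passed after adjustment, and 563 to 1146, 1205 to 2302 and 977 to 1890 differences departed from those at day 7, in early MOV and in sham muscle. The upper value of 16 came without SC+ sham replicate 2. With a log2 difference over 1 required, 183 genes were higher and 146 lower. After adjustment 26 genes passed with only the 4 arrays of day 5, 33 with the 8 arrays of days 5 and 7, and 0 when every row was tested. The count against day 7 was 341 among genes with a mean of at least 6. The cause of these shifts was not tested. The labels do not say whether arrays of the same replicate number share a day or batch. Same-numbered deviations had r = 0.0143 at day 5, and -0.155 to 0.216 over all pairs of groups. These values cannot show that no day or batch was shared. With a replicate block, 865 genes were higher, 925 lower and 1 passed after adjustment, and 679, 2040 and 1525 differences departed from those at day 7, in early MOV and in sham muscle. Of the named genes 4 lost their call with the block. Of the 157 genes followed, the ones that changed sign had not passed. With each day 5 array left out, Cd81 ran between -0.12 and 0.13, Itgb1 between -0.032 and 0.23, Chrnd between -1.06 and 0.076, Mest between -0.13 and 0.81 and Myf6 between -0.43 and 0.20. After another quantile normalisation Cd81 was at -0.025 and Itgb1 at -0.022, and after median centring Cd81 was at -0.0014. Probe sets under about 7.2 are near background, and those near 19.93 are at the top of the scale.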
